A study of Mus musculus with 22 samples.

Results

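Fatty acid oxidation enzymes are described here in mouse CD8+ T cells with and without VHL. The members are 9 genes of the mitochondrial beta-oxidation route, chosen by symbol: Cpt1a, Cpt2, Slc25a20, Acadm, Acadl, Acadvl, Hadha, Hadhb and Ech1. All 9 were found among the 46297 rows of the expression table, and all 9 passed the filter on low values (at least 2 libraries with 10 or more scaled counts), as did 14327 genes in all.

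Beta-oxidation breaks fatty acids down to acetyl-CoA inside mitochondria. Long-chain fatty acids reach the matrix as carnitine esters through Cpt1a, the carnitine carrier Slc25a20 and Cpt2. Chain-length-specific acyl-CoA dehydrogenases then begin each round of shortening and the trifunctional protein carries it on. The route is known in CD8+ T cells for its part in memory formation and mitochondrial fuel use. The VHL protein marks hypoxia-inducible factor (HIF) alpha subunits for degradation, and cells that lack it keep HIF active in the presence of oxygen.

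RNA sequencing covered 22 libraries of P14 cells, which are CD8+ T cells with a transgenic receptor for a viral peptide, from C57BL/6 mice of 6 to 12 weeks. Of these, 11 were wild type (WT) and 11 were deficient in VHL. Both genotypes were sampled in spleen at day 7, in tumor at day 7 without a further split, in tumor at day 11, and in 2 sorted fractions of the day 7 tumor, Trm (tissue-resident memory) and nonTrm. The 2 day 11 groups hold 3 libraries each and the other 8 groups hold 2. Per the design text of the series each replicate came from 5 mice, which the library labels do not state. Not given in the sources are the kind of tumor, what the days count from, which markers defined Trm, and the Cre line or other means by which VHL was removed.

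Libraries held 3375558 to 10211060 reads assigned to genes, of which 1 ribosomal RNA gene took 26.9% to 45.7% and the mitochondrial genome 2.89% to 12.1%. Reads of Vhl numbered 0 to 32 in VHL-deficient and 60 to 280 in WT libraries. Summed CD8 T-cell markers stood at 29652 to 79484 scaled counts in all libraries. One library stood apart, VHL-deficient nonTrm replicate 2, with the highest ribosomal share (45.7%) and the highest summed level of nuclear long RNAs (35504 against at most 16083 in any WT tumor library). Its depth of 3973695 reads was low but not the lowest. WT day 11 replicate 1 held 3770210 reads, WT unsplit day 7 tumor replicate 2 held 3644936 and VHL-deficient spleen replicate 1 held 3375558. That spleen library also had a ribosomal share of 42.3%. It held 1780047 reads outside ribosomal RNA and the mitochondrial genome, against 1996942 in the nonTrm library. Several member results are given with and without the nonTrm library that stood apart. Neutrophil markers were read in WT day 11 replicate 2, summed to 820 scaled counts. The library titles share 1 number and end in a letter and a number, read here as well positions on 1 plate. By that reading the Trm and nonTrm sorts lay in column 1. The spleen and unsplit day 7 tumor cells lay in column 2 and the day 11 cells in column 3. Genotype, tissue and subset were therefore compared within a column, whereas neither day nor the sort of the tumor cells can be told apart from column.

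Levels below are scaled counts, that is, reads divided by the library's size factor, and 1 read is worth 0.684 to 2.73 of them. Differences are log2 fold changes (log2FC) of scaled count + 1 from 1 limma fit over all libraries, and a gene was called at a Benjamini-Hochberg adjusted p under 0.05 over all tested genes. In bulk RNA, fewer cells with a transcript and less of it per cell cannot be told apart. The library labels do not state which mice each library came from, so in all comparisons p-values measure only the spread between these libraries.

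All 9 transcripts were present in every library, with 6 reads at the least (Cpt2 in the library that stood apart) and 2088 at the most (Acadl). Per kilobase of exon, the median level over the 22 libraries was highest for Acadl at 530, followed by Ech1 at 349, Acadvl at 184 and Hadha at 92.3. Cpt1a (44.7), Slc25a20 (44.4) and Acadm (43.3) lay close together, and Hadhb (28.7) and Cpt2 (27.7) were lowest. These medians divide by the union of all annotated exons, which differs from the transcript in use by an unknown amount. The Acadvl exons share 42.9% of their length with Dvl2 on the opposite strand, and since a strand setting of the counting is not stated in these sources, reads of the 2 genes may be mixed there.

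Within groups, most members were steadier than the median tested gene, though genes were not matched for level. Their pooled standard deviation (SD) on the log2 scale ran from 0.17 for Slc25a20 to 0.38 for Cpt2, against a median of 0.50 over tested genes, and only Cpt1a lay above that median at 0.59. Cpt1a was also lowest in the shallowest library of 8 of the 10 groups, a count that 9.9% of tested genes reach. The part of depth in its values was not tested.

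**Figure D1:**
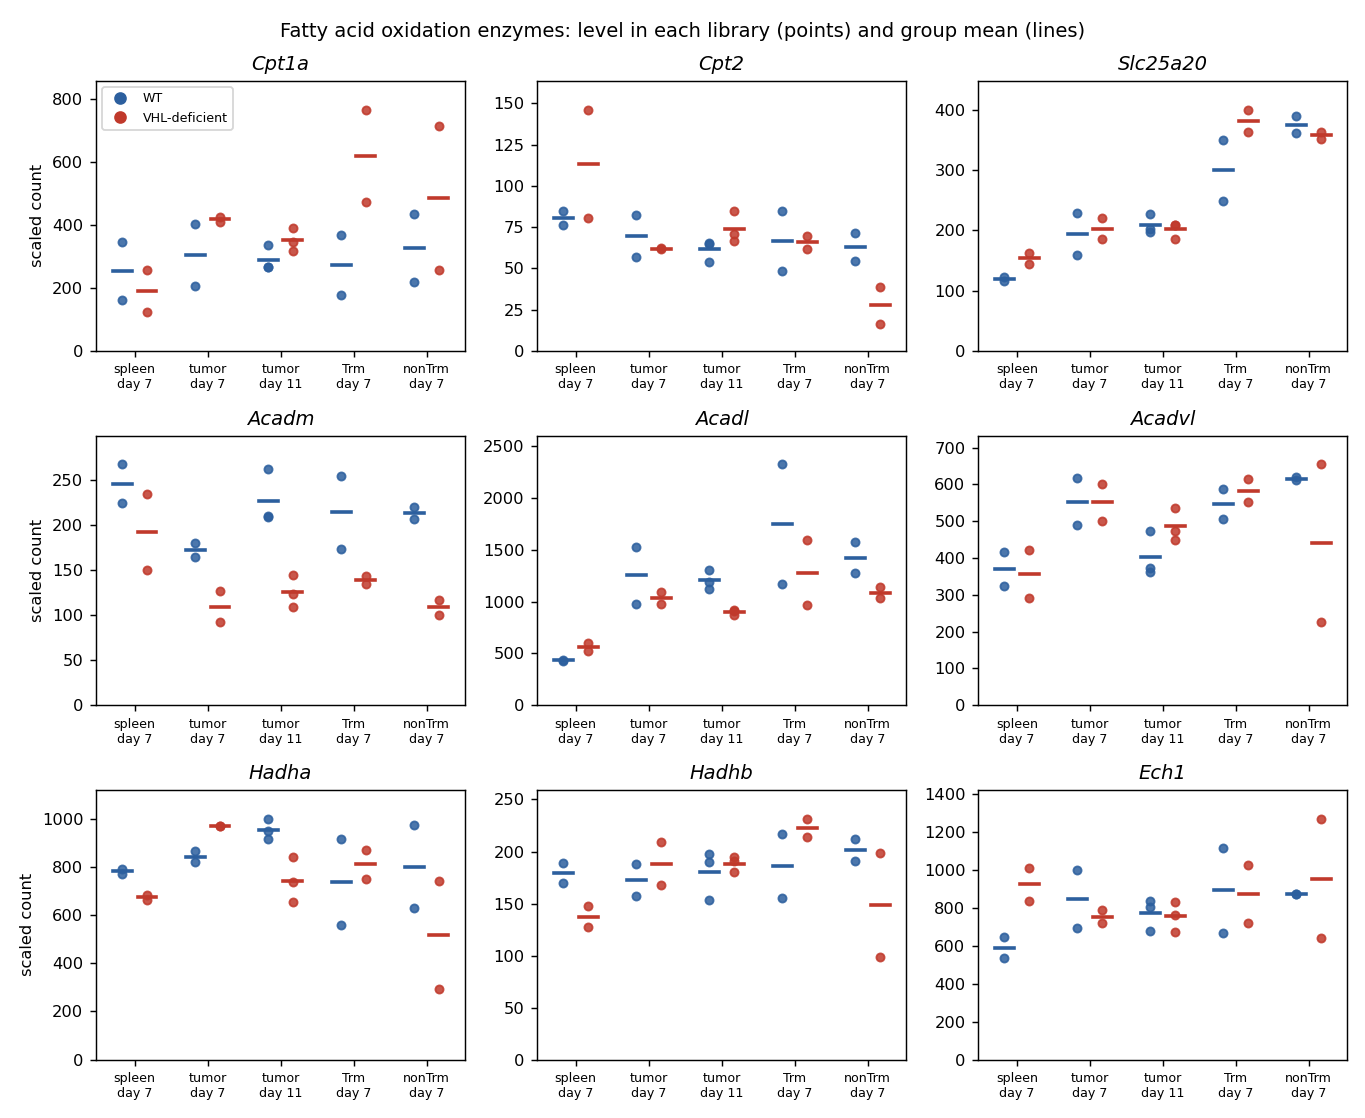
Scaled counts of the 9 enzyme transcripts in the 22 libraries, by tissue, day and sort on the horizontal axis (points are libraries, short lines group means, WT in blue and VHL-deficient in red; each panel has its own axis from 0). Acadm lies lower in VHL-deficient tumor cells, Acadl lower in spleen, and Slc25a20 higher in the sorted cells.

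Acadm (mm10 chr3:153922357-153944632, minus strand) was the member whose transcript differed by genotype. It encodes medium-chain acyl-CoA dehydrogenase, which acts on fatty acids of medium chain length, and is a textbook target of PPAR nuclear receptors. In the 9 VHL-deficient tumor libraries it ranged from 92.0 to 144 scaled counts (median 123) and in the 9 WT tumor libraries from 165 to 263 (median 208). Every VHL-deficient tumor library lay below every WT one, a separation that 0.859% of tested genes show in that direction.

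At day 11, Acadm stood at 109, 123 and 144 scaled counts in the VHL-deficient libraries and at 263, 208 and 210.1 in the WT libraries. The means were 125 ± 17.6 and 227 ± 30.8 (SD, n = 3 each), and Acadm fell by 0.85 on the log2 scale (standard error, SE, 0.24), with an adjusted p of 0.0328. It was the 1 member called of 9 in a comparison in which 6.87% of all tested genes were called, 2.39% as lower. The call did not hold when any one of 5 of the 6 day 11 libraries was left out (adjusted p 0.0625 to 0.138), and held without VHL-deficient replicate 3. It was also lost with no filter (0.100) and with a replicate block (0.0515).

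In unsplit day 7 tumor, Acadm stood at 92.0 and 127 in VHL-deficient cells and at 179.9 and 165 in WT cells, with a log2FC of -0.67 and an adjusted p of 0.315. In Trm cells the values were 135 and 143 against 254 and 174 (log2FC -0.59, adjusted p = 0.200). In nonTrm cells they were 101 and 117 against 207 and 219 (log2FC -0.97, adjusted p = 0.0858). Without the library that stood apart, which held the 117, the nonTrm log2FC was -1.08. None of these 3 pairs of groups overlapped, as is so in that direction for 23.6%, 25% and 14.4% of tested genes, and each missed the threshold. In spleen the groups overlapped, at 235 and 150.1 in VHL-deficient against 267 and 224 in WT cells (log2FC -0.38, adjusted p = 0.663). The interaction of genotype with tissue was -0.29 for Acadm, with a 95% interval from -1.14 to 0.57, so the spleen and tumor differences were not shown to differ.

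Averaged over the 5 settings, Acadm fell by 0.69 on the log2 scale (SE 0.12, 95% interval -0.95 to -0.43), or 1.62-fold, with an adjusted p of 3.13e-04. This call held in all 33 alternatives, with log2FC from -0.76 to -0.63 and adjusted p from 2.02e-04 to 0.00140. Among all tested genes 27.2% were called in this averaged comparison, and 11.8% were called as lower, so 1 of 9 members is close to the background. The members' median log2FC was -0.09, beside 0.04 over all tested genes.

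Relative to its pathway Acadm was also low in these cells. Its log2 level minus the mean log2 level of the other 8 members ranged from -2.02 to -1.08 in VHL-deficient tumor libraries and from -1.26 to -0.39 in WT tumor libraries. The ranges overlap through the VHL-deficient nonTrm library that stood apart, which held the value of -1.08.

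The annotated stretch before the Acadm start is shown because Acadm is the member that moved with genotype, and that before Acadl because Acadl moved with tissue. Both are the 250 bases before the RefSeq start in GRCm38.p6 (mm10), 5′ to 3′ on the gene's strand, Acadm at chr3:153944644-153944893 and Acadl at chr1:66863310-66863559, each on the minus strand. Capitals mark matches on either strand to the HIF core (ACGTG or GCGTG) or to AGGTCA, called the PPAR core here. AGGTCA is only 1 unit of the direct repeat named further on.
Acadm: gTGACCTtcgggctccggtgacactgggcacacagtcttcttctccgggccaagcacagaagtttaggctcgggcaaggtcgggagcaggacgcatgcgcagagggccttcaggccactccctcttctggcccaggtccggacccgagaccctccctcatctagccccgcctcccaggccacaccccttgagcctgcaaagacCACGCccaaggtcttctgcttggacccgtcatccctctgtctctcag
Acadl: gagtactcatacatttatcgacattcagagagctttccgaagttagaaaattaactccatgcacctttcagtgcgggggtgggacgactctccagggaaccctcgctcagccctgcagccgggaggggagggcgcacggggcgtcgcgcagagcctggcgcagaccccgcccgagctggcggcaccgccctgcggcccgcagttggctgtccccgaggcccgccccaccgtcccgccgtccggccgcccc
The Acadm stretch holds 1 HIF core match, 47 bases before the start, and 1 PPAR core match near its distal end, 249 bases before the start, both on the opposite strand. The Acadl stretch holds neither and is richer in CpG, with 25 against 12. In the windows from 250 bases before to 50 after the start, found for all 9 members, the HIF core was present in 4 (Cpt2, Acadm, Acadvl and Hadhb), beside 43.8% of all 32851 promoters in the table and 61.5% of those of tested genes. The PPAR core was present in 3 (Cpt1a, Acadm and Acadvl), beside 16.3% and 12.6%. No member held the direct repeat AGGTCANAGGTCA, which 0.0396% of all promoters hold, or the NRF1 core (0.971%). The ETS core CCGGAAG was present in 2 (Cpt2 and Slc25a20), beside 8.86% of all promoters and 18.3% of those of tested genes. These matches describe letters only, and nothing about binding was measured.

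Of the 3 carnitine shuttle members, none was called for genotype in any of the 5 settings or in their mean. Cpt1a, the outer-membrane transferase that commits fatty acids to import (mm10 chr19:3322334-3385733, plus strand), had the largest spread within groups. In Trm cells it stood at 472 and 766 scaled counts in VHL-deficient libraries and at 178 and 367 in WT libraries (log2FC 1.23, SE 0.49, adjusted p = 0.118). In unsplit day 7 tumor it stood at 409.9 and 425 against 404 and 205 (log2FC 0.54, adjusted p = 0.659). The day 11 libraries gave 391, 318 and 347 against 266, 338 and 265 (log2FC 0.28, adjusted p = 0.724). The groups did not overlap in Trm cells or in unsplit tumor, as in 28.5% and 25.5% of tested genes in that direction, while those at day 11 did. Spleen went the other way, with 123 and 256 against 160.0 and 346 (log2FC -0.41, adjusted p = 0.814).

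The mean genotype difference of Cpt1a was 0.42 (SE 0.21, 95% interval -0.02 to 0.87, adjusted p = 0.149). VHL-deficient nonTrm cells held 715 and 256, the second in the library that stood apart. Without that library the mean difference was 0.57 with an adjusted p of 0.0281, so Cpt1a was then called as higher. It was called in that 1 of 33 alternatives.

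Cpt2, which returns the acyl group to CoA inside the inner membrane, had a mean genotype difference of -0.14 (95% interval -0.51 to 0.23, adjusted p = 0.607). Its lowest values were 39.0 and 16.4 in VHL-deficient nonTrm cells, against 54.2 and 71.5 in WT nonTrm cells. Slc25a20, the carrier that exchanges acylcarnitine for carnitine, had a mean difference of 0.14 (95% interval -0.09 to 0.36, adjusted p = 0.365). That is the narrowest interval of the 9 members and leaves room for at most 0.36 log2 units.

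The long-chain dehydrogenases did not pass the test either. Acadl, which acts on long-chain acyl-CoA, had lower group means in VHL-deficient cells in all 4 tumor settings and a higher one in spleen. At day 11 it stood at 921, 905 and 875 against 1125, 1308 and 1186 scaled counts, without overlap, as in 17.9% of tested genes in that direction (log2FC -0.42, adjusted p = 0.326). It was called there with only the 2 groups compared in the fit (adjusted p = 0.0265). Over the 5 settings the difference was -0.22 (95% interval -0.49 to 0.05, adjusted p = 0.218), and -0.32 (0.0478) without WT Trm replicate 2. Acadvl, the very-long-chain enzyme of the inner membrane, had -0.07 (95% interval -0.38 to 0.23, adjusted p = 0.752).

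For the trifunctional protein and the auxiliary enzyme no genotype difference was called. Hadha, its hydratase and dehydrogenase subunit, had a mean difference of -0.19 (95% interval -0.48 to 0.10, adjusted p = 0.336), and Hadhb, its thiolase subunit, had -0.09 (95% interval -0.36 to 0.18, adjusted p = 0.657). The Hadha difference was -0.32 without VHL-deficient nonTrm replicate 1. That left only the library that stood apart in its group, with Hadha at 292, the lowest of the series. At day 11 Hadha stood at 841, 653 and 735 in VHL-deficient and 914, 947 and 999 in WT libraries (log2FC -0.37, adjusted p = 0.446). Ech1, a dienoyl-CoA isomerase for unsaturated fatty acids, had 0.10 (95% interval -0.18 to 0.38, adjusted p = 0.616). In spleen its values were 1012 and 839 against 646 and 535, without overlap (as in 23.7% of tested genes in that direction), with a log2FC of 0.65 and an adjusted p of 0.365.

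Without the library that stood apart, the mean genotype difference was -0.056 for Hadha, 0.013 for Hadhb, 0.079 for Acadvl, -0.017 for Cpt2 and 0.0015 for Ech1, so the signs of Hadhb and Acadvl turned. None of these 5 was called in either case.

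In the day 7 settings, limma called 0 of the 9 members for genotype. At an unadjusted p under 0.05 there was 1 member in unsplit tumor, 1 in spleen, 1 in Trm cells and 3 in nonTrm cells, and voom on the recovered reads also called 0 in each. The shares of all tested genes called were 1.91%, 3.18%, 10.1% and 2.32%.

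**Figure D2:**
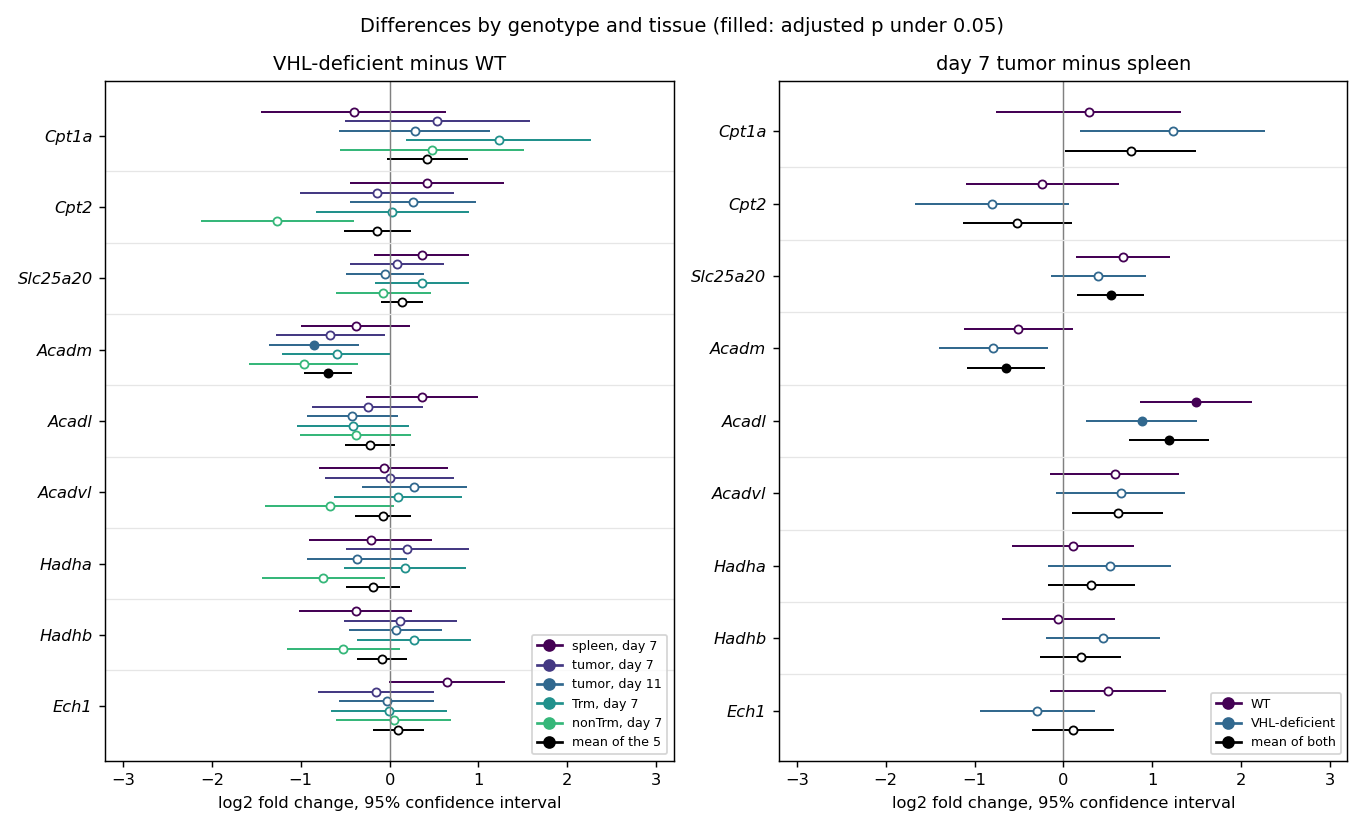
Log2 fold changes of the 9 transcripts with 95% confidence intervals, for VHL-deficient minus WT cells in 5 settings and their mean (left) and for day 7 tumor minus spleen in each genotype and their mean (right), with filled points for an adjusted p under 0.05. On the left only Acadm has filled points, at -0.85 in day 11 tumor and -0.69 in the mean, and on the right Acadl, Slc25a20 and Acadm do.

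Tumor and spleen differed in the balance of the acyl-CoA dehydrogenases. Acadl (mm10 chr1:66830839-66863277, minus strand) was higher in tumor, where all 18 tumor libraries, at 875 to 2324 scaled counts, lay above the 4 spleen libraries, at 430.0 to 601. Such a separation is shown by 4.12% of tested genes. Acadm went the opposite way between WT spleen (224 to 267) and WT unsplit tumor of the same day (165 to 179.9). These 2 groups did not overlap, as in 26.8% of tested genes in that direction. Within a single genotype the Acadm difference between tumor and spleen was not called by limma. Its log2FC was -0.51 in WT (adjusted p = 0.225) and -0.79 in VHL-deficient cells (adjusted p = 0.0698). Over all 18 tumor and 4 spleen libraries, however, Acadm overlapped, at 92.0 to 263 in tumor and 150.1 to 267 in spleen.

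In WT cells Acadl stood at 982 and 1526 in unsplit day 7 tumor against 430.0 and 437 in spleen, and rose by 1.50 log2 units (SE 0.30, adjusted p = 0.00119). It was the 1 member called there, where 21.5% of tested genes were called, 13.2% as higher. In VHL-deficient cells it stood at 1089 and 975 against 601 and 520.1, and rose by 0.88 (SE 0.30, adjusted p = 0.0488), again the 1 member called, where 15.4% of tested genes were called and 9.98% as higher. Groups without overlap in this direction are shown by 33.1% of tested genes in WT and 33.8% in VHL-deficient cells. The VHL-deficient call lay at the threshold and was lost in 11 of 17 alternatives, with adjusted p up to 0.244. The mean of both genotypes was 1.19 (SE 0.21, adjusted p = 1.97e-04), or 2.28-fold, and was called in all 21 alternatives. The interaction of genotype and tissue was -0.61 for Acadl (95% interval -1.49 to 0.26, adjusted p = 0.613).

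Averaged over genotypes, Acadm fell by 0.65 log2 units from spleen to tumor (SE 0.20, adjusted p = 0.0201) and Slc25a20 rose by 0.53 (SE 0.18, adjusted p = 0.0263). Slc25a20 stood at 159 and 228 in WT and 220.5 and 185 in VHL-deficient tumor, against 122 and 116 in WT and 163 and 144 in VHL-deficient spleen. Both calls were less stable than that of Acadl. That of Acadm was lost with no filter and without any one of VHL-deficient spleen replicate 1, VHL-deficient tumor replicate 1, WT spleen replicate 1 and WT tumor replicate 2 (adjusted p 0.0568 to 0.115). That of Slc25a20 was lost in 7 of 21 alternatives: with no filter, with only the groups compared, and without any one of VHL-deficient spleen replicate 2, VHL-deficient tumor replicate 1, WT tumor replicate 2 and either WT spleen replicate (adjusted p 0.0528 to 0.126).

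Of the remaining 6 members none was called between tumor and spleen in the mean. Cpt1a had a log2FC of 0.76 (adjusted p = 0.105), Acadvl 0.61 (0.0600), Hadha 0.32 (0.318), Hadhb 0.20 (0.521), Ech1 0.11 (0.744) and Cpt2 -0.52 (0.185). Acadvl was called without the library that stood apart (adjusted p = 0.00583), which enters only through the shared estimate of the spread. Without it, Cpt1a (0.0469) and Acadm (0.0473) were also called between VHL-deficient tumor and spleen, and Slc25a20 (0.0405) between WT tumor and spleen. In all, 2 of 9 members rose and 1 fell, where 31.1% of tested genes were called, 18.3% as higher and 12.8% as lower. The members' median was 0.32, beside 0.08 over all tested genes.

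The shift shows directly in the ratio of the 2 dehydrogenase transcripts within a library. WT spleen held 51.3 and 62.1 Acadm reads per 100 Acadl reads, and VHL-deficient spleen 28.9 and 39.0. WT tumor libraries held 10.8 to 23.3 (median 15.9) and VHL-deficient tumor libraries 8.45 to 16.5 (median 11.9). The spleen values lay above all tumor values in both genotypes, while the tumor ranges of the genotypes overlapped. Each value is a ratio of 2 genes of a library and so does not depend on its size factor.

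**Figure D3:**
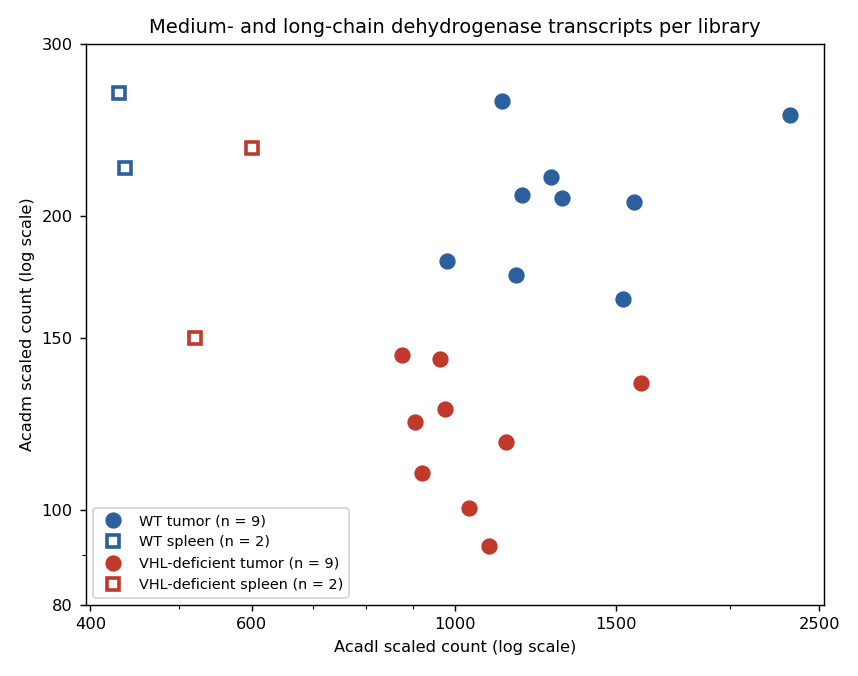
Acadm against Acadl scaled counts in each library, both axes logarithmic, with filled circles for tumor and open squares for spleen. Spleen libraries sit to the left, at 430.0 to 601 for Acadl, and the VHL-deficient tumor libraries sit below the WT tumor libraries, at 92.0 to 144 against 165 to 263 for Acadm.

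Other markers moved with tissue as well. Proliferation genes summed to 1474 to 2086 scaled counts in spleen and 2090 to 18830 in tumor libraries, with 10 of 10 higher in tumor. Dendritic-cell markers summed to 691 to 1237 in spleen and 81.8 to 394 in tumor libraries, while Clec9a and Siglech did not exceed 3.28 anywhere. B-cell markers summed to 570 to 1222 in spleen, 311 to 1018 in WT tumor and 76.1 to 297 in VHL-deficient tumor libraries, so the WT tumor range overlapped that of spleen, with Ms4a1 at 2.35 at most. CD4 T-cell markers summed to 290.2 to 1485 in spleen and 2715 to 12845 in tumor, with 2 of 6 called as higher in tumor and Cd4 itself at 25.1 at most in any library. Macrophage and monocyte markers summed to 15.3 to 35.8 in spleen and 36.5 to 159 in tumor libraries, with 2 of 4 tested higher in tumor. Messages of the mitochondrial genome summed to 34437 to 45662 in spleen, 64402 to 147317 in WT tumor and 24438 to 50440 in VHL-deficient tumor libraries. Their part in the tissue differences of the enzymes was not tested.

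Between Trm and nonTrm cells, limma called 0 of 9 members in WT cells, in VHL-deficient cells and in their mean. At an unadjusted p under 0.05 there were 0, 3 and 1, and voom called 0 in each. Among all tested genes 0.3%, 0.00698% and 0.293% were called, so the comparison had few calls of any kind, and under further TMM scaling the calls in WT went from 29 higher and 14 lower to 15 higher and 16 lower. In WT cells the log2FC ran from -0.34 (Slc25a20) to 0.22 (Acadl).

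In VHL-deficient cells several values moved with 1 library. Cpt2 stood at 61.8 and 69.9 in Trm and at 39.0 and 16.4 in nonTrm cells (log2FC 1.34, adjusted p = 0.469). Hadha stood at 871 and 748 against 741 and 292, Hadhb at 214 and 231 against 199 and 98.2, and Acadvl at 613 and 553 against 654 and 226. In each case the low value was that of the nonTrm library that stood apart. Without it the log2FC of Cpt2 was 0.74, of Hadha 0.12, of Hadhb 0.16 and of Acadvl -0.17. When instead the other nonTrm library was left out, so that the one that stood apart spoke for the group alone, Cpt2, Acadvl, Hadha and Hadhb were called, with log2FC from 1.17 to 1.94. The same 4 genes were then called for genotype in nonTrm cells, as lower, and for the interaction of genotype and subset.

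In that library not all members were low. Ech1 was at its highest of all 22 libraries there, at 1271, and Acadl at 1138 and Slc25a20 at 352 lay near their partners in the other nonTrm library, at 1036 and 364. The mean log2 level of the 9 members was 7.84 there, the lowest of the series, whose range reached 8.67.

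Slc25a20 (mm10 chr9:108662088-108684641, plus strand) separated the sorted from the unsplit tumor cells. The 8 Trm and nonTrm libraries held 249 to 399.9 scaled counts (median 362) and the 10 unsplit tumor libraries of both days 159 to 228 (median 205). No library of one kind reached the other, a separation in that direction shown by 0.154% of tested genes. Since all sorted cells lay in plate column 1, sort and column cannot be told apart here. Cpt1a overlapped in the same comparison, with 178 to 766 against 205 to 425, and so did the other 7 members.

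From day 7 to day 11, limma called 0 of 9 members in either genotype, with 0 at an unadjusted p under 0.05 in each, and voom called 0 as well. No gene of any kind was called (0% of tested genes in each), and day cannot be told apart from plate column. The log2FC of the members ran from -0.46 (Acadvl) to 0.39 (Acadm) in WT and from -0.39 (Hadha) to 0.25 (Cpt2) in VHL-deficient cells. The interactions of genotype with tissue, subset and day called 0 members each, with 0, 1 and 0 at an unadjusted p under 0.05 and 0 by voom, where 0.0698%, 0% and 0% of tested genes were called.

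Hadha and Hadhb encode the 2 subunits of 1 complex and lie head to head on chromosome 5, Hadha at chr5:30118304-30155162 on the minus strand and Hadhb at chr5:30155248-30184593 on the plus strand (mm10, GENCODE M21). The 85 bases between their annotated starts are shown because both genes are read outward from them, at chr5:30155163-30155247 on the plus strand.
Hadha and Hadhb: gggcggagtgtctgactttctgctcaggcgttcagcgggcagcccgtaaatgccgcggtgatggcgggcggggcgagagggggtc
Their group means correlated with r = 0.63 over the 10 groups. Per kilobase of exon, Hadha stood at 2.24 to 4.51 times Hadhb in the 22 libraries, with a median of 3.36. Tumor libraries of WT cells spanned 2.24 to 4.51 and those of VHL-deficient cells 2.25 to 4.36, so the ratio overlapped between genotypes.

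Across the 10 group means the members did not move as 1 block. The highest correlations were between Slc25a20 and Acadl (r = 0.79), Acadvl and Hadhb (0.75) and Acadl and Acadvl (0.73), and the lowest was between Cpt1a and Acadm (-0.69). The groups share plate columns and scaling, and these values are descriptions over 10 points. Outside the list, the genes whose group means were most like those of Acadm were Rhoh (r = 0.96), Gbf1 (0.96) and Letmd1 (0.93), with 19 tested genes above 0.9. Those most like Acadl were Ywhaz (0.99), Emc3 (0.98) and Prdx2 (0.97), with 192 above 0.9. Cpt1a was most like Cxadr (0.96), Ttc21a (0.96) and Tfip11 (0.95), with 23 above 0.9.

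Of 51 tested genes in 7 lists around the 9 enzymes, 9 rose and 3 fell in the mean of the 5 settings, where 15.5% and 11.8% of all tested genes did, so the lists together held no larger share of calls than the 27.2% of the background. Of the 9 other matrix beta-oxidation genes, 0 were called by limma, with 1 at an unadjusted p under 0.05. Neither of the 2 tested carnitine genes outside the members was called in the mean, though Crot, which moves medium chains onto carnitine in peroxisomes, rose in Trm cells (1022 ± 98.3 against 393 ± 202 scaled counts, n = 2 each, log2FC 1.48, adjusted p = 0.0384).

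Among the 9 tested regulators 3 rose and 1 fell. Pparg, a nuclear receptor of lipid storage, had 47.6 to 183 scaled counts in VHL-deficient libraries and 0 to 28.4 in WT libraries, with 0 reads in 2 of the WT libraries. It rose by 4.53 log2 units (adjusted p = 9.54e-08), a value that depends on the added count because WT levels were so low. Ppard, a related receptor, stood at 22.1 to 73.7 against 6.92 to 30.6 (log2FC 1.39, adjusted p = 1.66e-04), and their partner Rxra rose by 1.23 (0.00293). The Ppard value of 73.7 was that of the library that stood apart. Ppargc1b, a coactivator of mitochondrial genes, fell by 1.01 (adjusted p = 0.0366). Its levels were low, at 1.35 to 31.3 scaled counts (1 to 38 reads) in VHL-deficient and 6.76 to 49.2 (5 to 46 reads) in WT libraries. Its group mean was not lower in nonTrm cells, at 15.7 in VHL-deficient and 14.5 in WT, and was lower in the other settings. Ppara and Ppargc1a lay below the filter, at 5.74 and 5.41 scaled counts at most, and gave no test.

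Among uptake and activation genes 2 of 9 rose, the fatty acid transporters Slc27a1 (81.8 to 290.4 against 34.6 to 87.3, log2FC 1.68, adjusted p = 1.41e-06) and Slc27a4 (0.91, adjusted p = 0.0114). Of 10 lipid droplet and lipolysis genes 3 rose. They were Hilpda, an inhibitor of the lipase Atgl and a known HIF target, at 373 to 15406 against 36.7 to 1723 scaled counts (log2FC 2.17, adjusted p = 6.75e-07), the droplet coat gene Plin2 (0.71, 0.00625) and Dgat1, which makes triglyceride (0.96, 0.00722). Hilpda and Slc27a1 were also called as higher at day 11, in spleen and in Trm cells. The Hilpda value of 15406 and the Slc27a1 value of 81.8 were those of the library that stood apart.

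Of 9 peroxisomal oxidation genes 1 rose, Acox3 (0.44, adjusted p = 0.0249), and 1 fell, Hsd17b4. Hsd17b4 encodes the peroxisomal bifunctional enzyme and stood at 73.7 to 268 in VHL-deficient against 218 to 344 in WT libraries (log2FC -0.67, adjusted p = 0.00208). Its value of 73.7 was that of the library that stood apart. Of 3 electron transfer genes, which pass electrons from the dehydrogenases to the respiratory chain, Etfb fell by 0.50 (adjusted p = 0.0241).

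**Figure D4:**
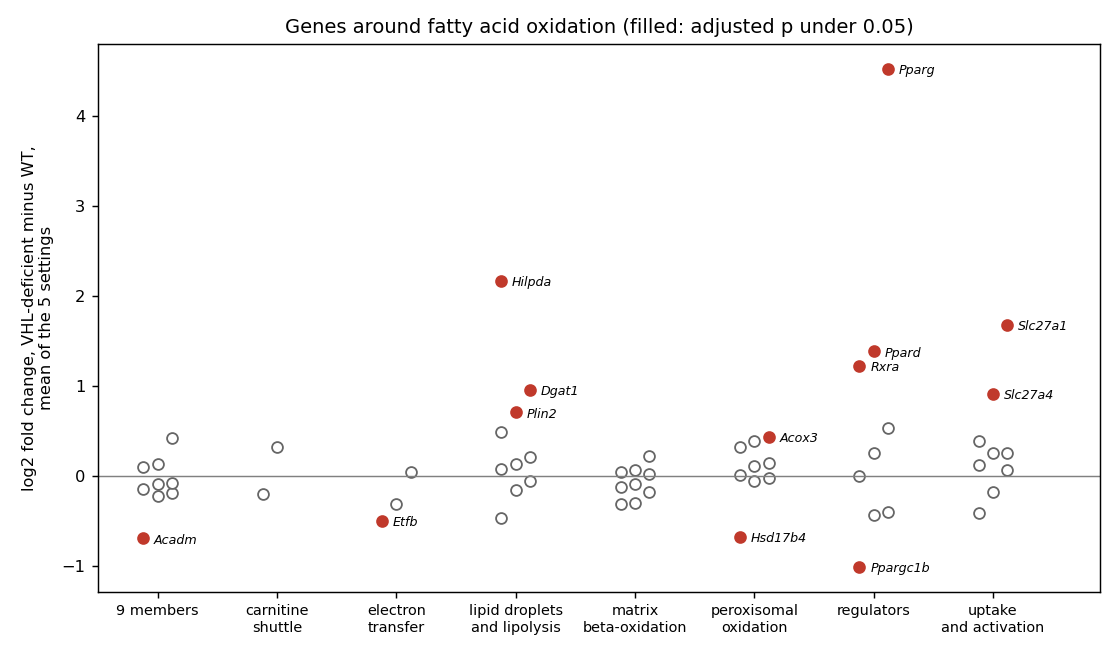
Log2 fold change between VHL-deficient and WT cells, mean of the 5 settings, for the 9 members and the 51 tested genes around them by role, with filled and named points for an adjusted p under 0.05. Most enzymes sit within 0.5 of 0, Acadm at -0.69, and the points farthest from 0 are Pparg at 4.53, Hilpda at 2.17 and Slc27a1 at 1.68.

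Between tumor and spleen 12 of the 51 genes rose and 5 fell in the mean of both genotypes, against 18.3% and 12.8% of all tested genes. Dgat1 rose by 3.96 log2 units, with 633 to 3543 scaled counts in unsplit day 7 tumor and 84.9 to 148 in spleen (adjusted p = 3.61e-07). Hilpda rose by 3.56 (5.38e-07), Plin2 by 2.14 (1.41e-05) and the acyl-CoA synthetase Acsl4 by 2.02 (5.71e-05). G0s2, an inhibitor of lipolysis, had 10 to 22 reads in spleen libraries and 0 in the 4 unsplit day 7 tumor libraries. Of the matrix enzymes outside the members, 0 of 9 were called, with 4 at an unadjusted p under 0.05. Between Trm and nonTrm cells, between days and for the interactions, 0 of the 51 were called.

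Other gene lists moved with genotype beside Acadm. Of 18 TCA cycle genes, whose enzymes burn the acetyl-CoA that beta-oxidation makes, 9 fell and 0 rose in the mean of the 5 settings, with a median log2FC of -0.42 beside 0.04 over all tested genes. Summed, they stood at 9454 to 12055 scaled counts in VHL-deficient and 12647 to 17405 in WT tumor libraries. Messages of the mitochondrial genome fell in 8 of 8 tested genes, with summed levels of 24438 to 50440 against 64402 to 147317. Proliferation genes fell in 10 of 10, and at day 11 summed to 3489 to 4224 against 11758 to 13059. The B-cell marker sum did not overlap between VHL-deficient (76.1 to 297) and WT tumor libraries (311 to 1018), while 1 of the 2 tested B-cell genes rose and 1 fell in the mean. The part of these changes in the Acadm result was not tested. The median of the 9 members lay at -0.09 in the same comparison.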

How the data were processed

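RNA sequencing of 22 CD8+ T-cell libraries was processed by the submitters with STAR, featureCounts and DESeq on mm10, per the submitters' processing notes, which give no versions. The values deposited by the authors are a signal, namely reads over a library's size factor with 1 added, as the steps between low values show. With the 1 taken off, 100% of values were whole reads to within 0.01 reads. The header states 55 samples, and 22 columns stand in the table. The depth is 3375558 to 10211060 reads per library, which sets the precision of low genes.

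Genes with at least 10 scaled counts in at least 2 libraries were tested (14327). For 17 comparisons, 10 group means were fitted to log2(scaled count + 1) of the 22 libraries with limma 3.58.1 (R 4.3.3), with eBayes(trend=TRUE) on 12 residual degrees of freedom, two-sided tests and Benjamini-Hochberg adjustment. Its day 11 genotype contrast was checked on simulated data, and the other contrasts were not. Groups follow the labels, with the label part "V" of the sorted cells read as VHL-deficient, which the Vhl reads match. The members, lists and tests were chosen with earlier results of these data known. Text names Vhl, all members, the marker lists, and of the other pathway genes those called in the mean genotype contrast or among the 5 smallest adjusted p per comparison. Alternatives were a further TMM scaling, recomputed size factors, size factors without ribosomal and mitochondrial rows, other filters and pseudocounts, no variance trend, library weights, a replicate block, only the groups compared, voom on the recovered reads and leaving out each library. A crossed block was added after seeing the data. A library left alone in its group took its spread from the other groups. Gene models are from GENCODE M21 on mm10 and promoter sequences from RefSeq (GRCm38.p6), with 9 of 9 members matched. Python 3.11.15, numpy 2.4.6, pandas 2.3.3 and matplotlib 3.10.9 were used.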

Additional observations from a re-analysis of the deposited data

How the results depend on the processing

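With 2 or 3 libraries a group, the calls near the threshold moved with the setting, and the cause was not tested. No called member changed direction in any alternative. Of the member genes called, Acadm for the mean genotype difference (33 of 33 alternatives), Acadl for tumor against spleen in WT (17 of 17) and in the mean (21 of 21) kept their calls.

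The count of members called for genotype at day 11 (1) was 0 with no filter, 0 with the replicate block and 2 with only the groups compared, and 0 to 1 with a library left out. In nonTrm cells (0) it was 1 with further TMM scaling, which moved the median of all genes by -0.10, and 0 to 4 with a library left out, the 4 without VHL-deficient nonTrm replicate 1. In the mean of 5 settings (1) it was 1 to 2 with a library left out. For tumor against spleen in WT (1) it was 2 with a filter at 50 scaled counts and 1 to 2 with a library left out. In VHL-deficient cells (1) it was 0 with recomputed size factors, with size factors without ribosomal and mitochondrial rows, with no filter, with a pseudocount of 0.5, with no variance trend, with the replicate block and with voom, 3 with library weights and 3 with only the groups compared, and 0 to 3 with a library left out. In the mean (3) it was 1 with no filter, 5 with library weights and 1 to 4 with a library left out. With a library left out it was 0 to 4 for Trm against nonTrm in VHL-deficient cells, 0 to 3 in the mean and 0 to 4 for the interaction with subset, the highest each without VHL-deficient nonTrm replicate 1.

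The members' median log2FC in nonTrm cells (-0.52) was -0.38 with voom, and that of the interaction with subset (0.75) was 0.90 with further TMM scaling, which moved the median of all genes by 0.15, and 0.61 with voom. With a library left out the median ran from -0.17 to 0.12 in unsplit day 7 tumor, -0.067 to 0.15 in spleen, -0.86 to -0.076 in nonTrm cells, 0.088 to 0.37 for WT tumor against spleen, -0.28 to -0.057, 0.16 to 1.17 and 0.013 to 0.48 for Trm against nonTrm in WT, VHL-deficient cells and their mean, -0.13 to 0.19 for day in WT, and -0.31 to 0.034, 0.29 to 1.30 and -0.16 to 0.12 for the interactions with tissue, subset and day. Replicate numbers are not stated to pair libraries, and same-numbered day 11 libraries deviated together with r = 0.043, 0.105 and 0.104. With 2 pairs, r was 0.029 in unsplit day 7 tumor, 0.118 in spleen, 0.236 in Trm and 0.271 in nonTrm cells. The replicate block left the other counts of members as they were, and the crossed block, chosen after seeing the data, for Trm against nonTrm, where same-numbered libraries correlated at -0.15 in WT and -0.18 in VHL-deficient cells, called 0 members.

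Counts over all tested genes moved more. They ran from 418 to 3023 at day 11 (984 as reported), 94 to 425 in unsplit day 7 tumor (273), 230 to 642 in spleen (455), 234 to 2359 in Trm (1446) and 11 to 1996 in nonTrm cells (332). For tumor against spleen they ran from 1486 to 3967 in WT (3079) and 876 to 3494 in VHL-deficient cells (2213). For Trm against nonTrm they ran from 0 to 221 in WT (43), 0 to 2544 in VHL-deficient cells (1) and 1 to 1311 in the mean (42). They reached 13 and 156 for day in WT and VHL-deficient cells, 17 for the interaction with tissue (10) and 1496 for that with subset, each 0 at the least.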
